A study of Bos taurus with 15 samples.

Results

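PAEP (also written LGB or BLG), the gene of beta-lactoglobulin, was examined with its surroundings on chromosome 11 of the bovine assembly UMD3.1. The window ran from base 103280000 to base 103330000 and was defined by position. The locus itself had been picked with earlier results of these data known. The gene itself was taken as bases 103301664 to 103306381, a length of 4718 bp. The assay was RRBS (reduced representation bisulfite sequencing), in which DNA is cut with restriction enzymes, short fragments are kept and unmethylated cytosines are converted before sequencing. Reads were found at 1923 CpG positions of the window in at least 1 of 15 animals, and 195 of these positions lay in the gene. The opposite strands of a CpG were listed as separate positions, and neighbouring positions were often covered by the same reads.

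All animals were Holstein cattle whose dams had either been heat stressed (shade only) or cooled (shade, fans and soakers) in the last 6 to 7 weeks of gestation. Liver came from bull calves at birth, as 5 in utero cooled calves (IUCL-B) and 4 in utero heat stressed calves (IUHT-B). Mammary gland was taken from heifers 21 days into lactation, their first, as 3 in utero cooled heifers (IUCL-H) and 3 in utero heat stressed heifers (IUHT-H). Tissue, sex and age changed together, so a difference between heifers and calves cannot be assigned to any of them: they cannot be told apart. DNA was extracted from whole tissue, so each level is an average over the cell types of the sample, and a change in cell makeup and a change of methylation within cells cannot be told apart. Each animal gave 1 library.

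Beta-lactoglobulin is the main whey protein of cow's milk. It is a lipocalin, a small carrier protein that binds fat-soluble molecules, and it is made in quantity by the epithelial cells of the lactating mammary gland and not by liver. Milk protein genes are switched on there by lactogenic hormones, with prolactin acting through the transcription factor STAT5, and methylation of CpG cytosines tends to be lower around the start of genes in use than around that of silent genes. The gene is known to be read toward higher coordinates, so that lower coordinates are called upstream here. In the RefSeq gene order of a later cattle assembly, PAEP is followed by GLT6D1, LCN9, a further lipocalin gene, and SOHLH1, and it is preceded by LOC100848610 and LOC618559.

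The libraries differed in kind between the tissues, and this touches every comparison with liver. The heifer libraries held 7552567 to 9753540 positions with a median of 1 read each, whereas the calf libraries held 307023 to 5958861 positions. In the gene, each heifer had 57 to 134 read calls at 38 to 82 positions, and no position had more than 5 reads in a heifer. The calves had 0 to 317 calls at 0 to 52 positions of the gene, with up to 97 reads at 1 position. A methylation level is the percent of methylated calls among all calls of a region in 1 animal, and an animal entered a comparison with at least 10 calls at 5 or more positions of the region. All 6 heifers met this rule in the gene, but only 4 of 9 calves did.

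PAEP was less methylated in the mammary gland of lactating heifers than in the liver of newborn calves. In the gene, the IUCL-H animals had levels of 74.3% (75 of 101 calls), 59.6% (34 of 57) and 59.7% (80 of 134). The IUHT-H animals had 61.5% (56 of 91), 45.2% (33 of 73) and 56.3% (40 of 71). Wilson 95% confidence intervals ran from 34.3% to 56.6% in the lowest heifer, IUHT-H 2, and from 65.0% to 81.8% in the highest, IUCL-H 1. They cover counting error only and take calls as independent. Reads of 1 fragment are not independent molecules, so the intervals can be too narrow.

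In liver, IUCL-B 4 had a level of 92.1% (140 of 152 calls at 29 positions) and IUCL-B 5 had 93.1% (295 of 317 calls at 52 positions). IUHT-B 2 had 100% (106 of 106 calls at 7 positions) and IUHT-B 4 had 100% (13 of 13 calls at 9 positions). Every heifer lay below every one of these 4 calves. The mean level was 59.4% ± 9.34 (SD, n = 6) in mammary gland and 96.3% ± 4.30 (SD, n = 4) in liver, a difference of -36.8 percentage points. The exact permutation test, two-sided over all splits of these animals, gave p = 0.00476, the smallest value the design allows, with a Benjamini-Hochberg adjusted p of 0.0452 over 19 regional tests. That adjusted p relied on a tie with another test of the same gene calls, given below. Among 98424 windows of 5 kb across the genome that held all heifers and at least 3 calves, 10.4% also had every heifer below every calf and 1.52% had every heifer above every calf. The lack of overlap was therefore common, and the size of the difference was less so, as given further on.

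**Figure D1:**
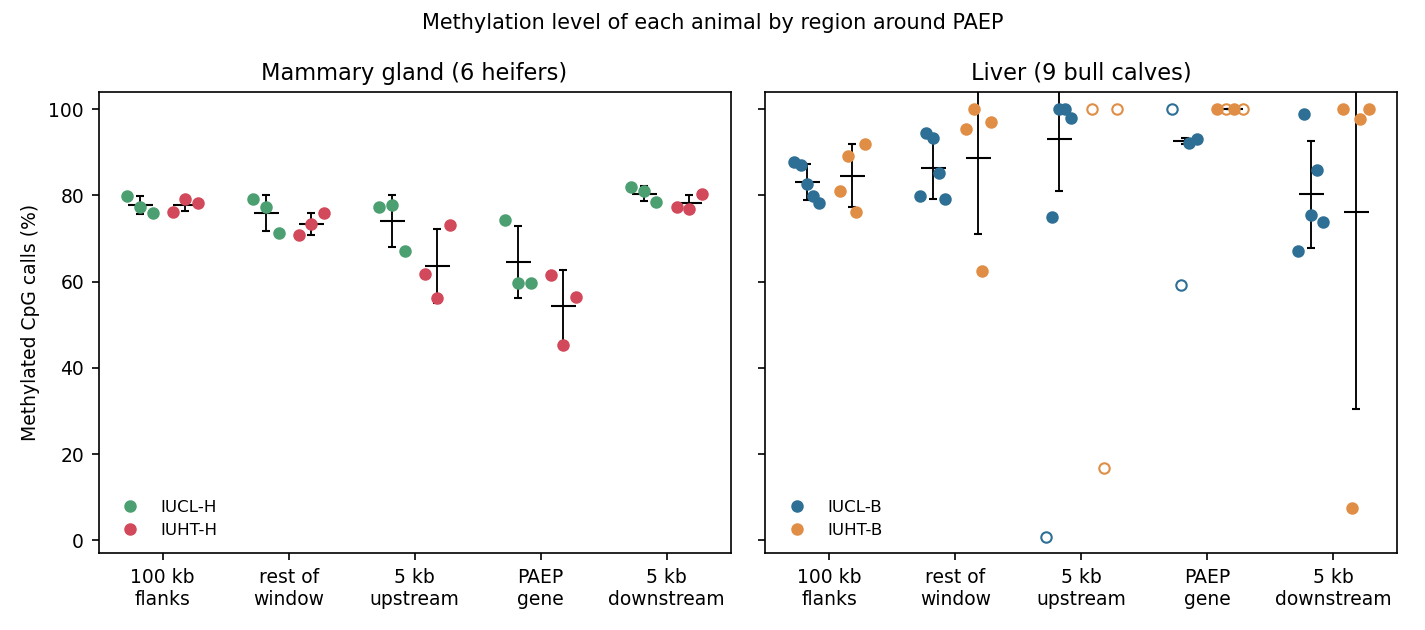
Methylation level (percent of methylated CpG calls) of each animal in the 100 kb flanks, the rest of the window, the 5 kb upstream, the PAEP gene and the 5 kb downstream, with heifers on the left and calves on the right. Filled circles are animals with at least 10 calls at 5 or more positions, open circles are animals with less, and bars give the mean ± SD of the filled circles, some of which run past the top of the axis. The heifers were at 45.2% to 74.3% in the gene and at 75.9% or higher in the flanks, while the 4 calves with enough calls in the gene were at 92.1% to 100%.

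The other calves held too few positions of the gene for the comparison. IUHT-B 3 had 291 of 291 calls methylated, but at 3 positions that lay between 804 and 838 bases after the start of the gene. IUCL-B 1 and IUHT-B 5 had 2 of 2 calls methylated each, IUCL-B 2 had no call, and IUCL-B 3 had 29 of 49 calls methylated at 3 positions, a level of 59.2%. IUCL-B 3 was thus the only calf in the range of the heifers, on few positions. When every calf with at least 1 call was included, a choice made after the data had been seen, the difference was -33.6 points with 8 calves (exact permutation p = 0.00233), and the tissues overlapped.

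The lower level in the heifers was seen at the same positions and not only over different ones. In the gene, 45 positions were read in both tissues. With calls pooled over the animals of a tissue, the heifers were lower at 30 of these, equal at 9 and higher at 6, with a mean over positions of 57.3% in mammary gland and 87.8% in liver. At the 12 of them with at least 3 reads in each tissue, the heifers were lower at 11 and equal at 1, with means of 60.4% and 99.9%. All 12 were at 80% or more in liver, which left the heifers little room to be higher. In the flanks, 983 positions had at least 3 reads in each tissue, 771 of them at 80% or more in liver. There the heifers were lower at 440, equal at 351 and higher at 192. These positions share reads and animals, so the counts are given as a description without a test. Taken over the shared positions in each animal, the difference between the tissues in the gene was -30.9 points (exact permutation p = 0.0190), and the tissues overlapped.

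The gene was also set against its flanks, the 100 kb before and the 100 kb after the window, within each animal. The flanks of the heifers were at 77.8% ± 1.61 (SD, n = 6), and the difference of the gene minus the flanks was -18.3 ± 9.30 points (SD, n = 6), with the gene lower in 6 of 6 heifers. The exact sign-flip permutation test gave p = 0.0312, the smallest value 6 animals allow (adjusted p = 0.0848). On positions with at least 3 reads, the difference was -14.9 points in 5 heifers, and the gene was not lower in all of them. In the 4 calves the gene was 17.5 points above the flanks (exact permutation p = 0.125, again the smallest value possible). The difference of these differences was -35.8 points (exact permutation p = 0.00476, adjusted p = 0.0452). This test used the same animals and gene calls as the tissue test of the gene and had the same p. The adjusted p of both relied on that tie, so they are not separate results. The sign within the calves alone could not pass the threshold with 4 animals. With every calf that had a call, the gene was 9.68 points above the flanks (8 calves, exact permutation p = 0.109), and IUCL-B 3 went the other way, at 59.2% in the gene and 82.7% in the flanks. The difference between the tissues was then -28.0 points with overlap (exact permutation p = 0.00366).

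The sides of the gene were compared between the tissues in turn, with different calves qualifying on each, so the sides were not tested against each other. In the 5 kb upstream, where the promoter lies, the heifers were at 77.3%, 77.8% and 67.2% (IUCL-H) and at 61.8%, 56.2% and 73.1% (IUHT-H). The calves with enough positions were at 74.9%, 100%, 100% and 97.9%, all of them IUCL-B. The mean difference was -24.3 points (68.9% ± 8.73, n = 6, against 93.2% ± 12.3, n = 4; exact permutation p = 0.0143, adjusted p = 0.0848), and IUCL-B 2 lay within the range of the heifers. This regional value depended on which positions a calf had. IUCL-B 1, left out for its 3 positions, had 2 of 245 calls methylated there, because 2 positions between 1 and 2 kb upstream carried 0 of 243 methylated calls. With every calf that had a call, the upstream difference was -4.89 points (exact permutation p = 0.773).

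In the 5 kb downstream, the heifers were at 79.3% ± 2.06 (SD, n = 6), and all 9 calves qualified, at 78.5% ± 29.5 (SD). The difference of 0.841 points was far within the spread of the calves (exact permutation p = 0.975). IUHT-B 3 alone was at 7.42% (38 of 512 calls at 5 positions), and without it the difference was -8.04 points (exact permutation p = 0.180). On positions with at least 3 reads it was 16.6 points, heifers higher (6 animals of each tissue, exact permutation p = 0.292). The rest of the window differed by -12.8 points (74.6% ± 3.38, n = 6, against 87.4% ± 12.03, n = 9; exact permutation p = 0.0294, adjusted p = 0.0848), and the flanks by -5.98 points (exact permutation p = 0.0222, adjusted p = 0.0848). For the whole window the heifers were at 73.9% ± 3.53 (n = 6) and the calves at 85.5% ± 10.6 (n = 9), a difference of -11.7 points (exact permutation p = 0.0254, adjusted p = 0.0848). By pooled calls, the gene was the region of these 6 that passed the threshold of 0.05 after adjustment, and in the others the ranges of the tissues overlapped. Its adjusted p relied on the tie with the test of the gene minus the flanks, made on the same gene calls. The contrast with the other regions did not hold for other weightings of the reads. With each position counted alike, the heifers were lower without overlap in the whole window (-11.8 points, exact permutation p = 0.000200) and in its rest (-11.6 points, exact permutation p = 0.000799), and lower with overlap in the flanks (-7.01 points, exact permutation p = 0.000999), none of these adjusted. With at most 5 reads counted per position, the unadjusted exact permutation p of these regions was 0.00120, 0.00120 and 0.00639. The lower level of the heifers thus also held for the surroundings of the gene under those weightings, with a smaller difference than in the gene (-34.6 and -35.0 points). Shares over the genome were computed from pooled calls only, by which the tissues overlapped in the whole window. Of 13976 windows of 50 kb with all animals, 12.4% had a pooled difference as low as its -11.7 points or lower, with a median of -3.58 points. Every heifer lay below every calf in 1.82% of them. No such share was computed with each position counted alike.

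A walk along the locus in tiles of 1 kb, counted from the start of the gene and pooled over the 6 heifers, showed where the calls of the gene were low. From the third kilobase before the gene, the tiles were at 62.5% (32 calls), 67.7% (192 calls) and 69.1% (191 calls). Within the gene they were at 58.7% (172 calls), 50.0% (90 calls), 72.1% (147 calls), 54.7% (86 calls) and 56.0% (50 calls), the last of these reaching a little past its end. The lowest of these tiles was thus the second kilobase of the gene, and the middle of the gene was higher than its ends.

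The intermediate level went on past the gene. The tiles from 5 to 7 kb after its start were at 59.1% (22 calls) and 59.9% (152 calls), and the next 3 were at 84.0% (268 calls), 87.1% (256 calls) and 83.3% (150 calls). Between the tile at 6 to 7 kb and the tile at 7 to 8 kb the level was higher in the second tile in each of the 6 heifers, from 26.7% to 86.2% in IUHT-H 1 and from 76.2% to 84.2% in IUCL-H 2, for example. The step was noticed in the pooled levels, so it is given as a description and was not tested. Only 3 calls fell between 5 and 4 kb before the gene and none between 4 and 3 kb, so the upstream edge of the stretch could not be placed at this depth. Further along the window other tiles were as low or lower in the heifers, at 42.9% (28 calls) from 13 to 14 kb, 52.1% (121 calls) from 17 to 18 kb and 23.2% (181 calls) from 25 to 26 kb, so the gene did not hold the only low tiles of the window.

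**Figure D2:**
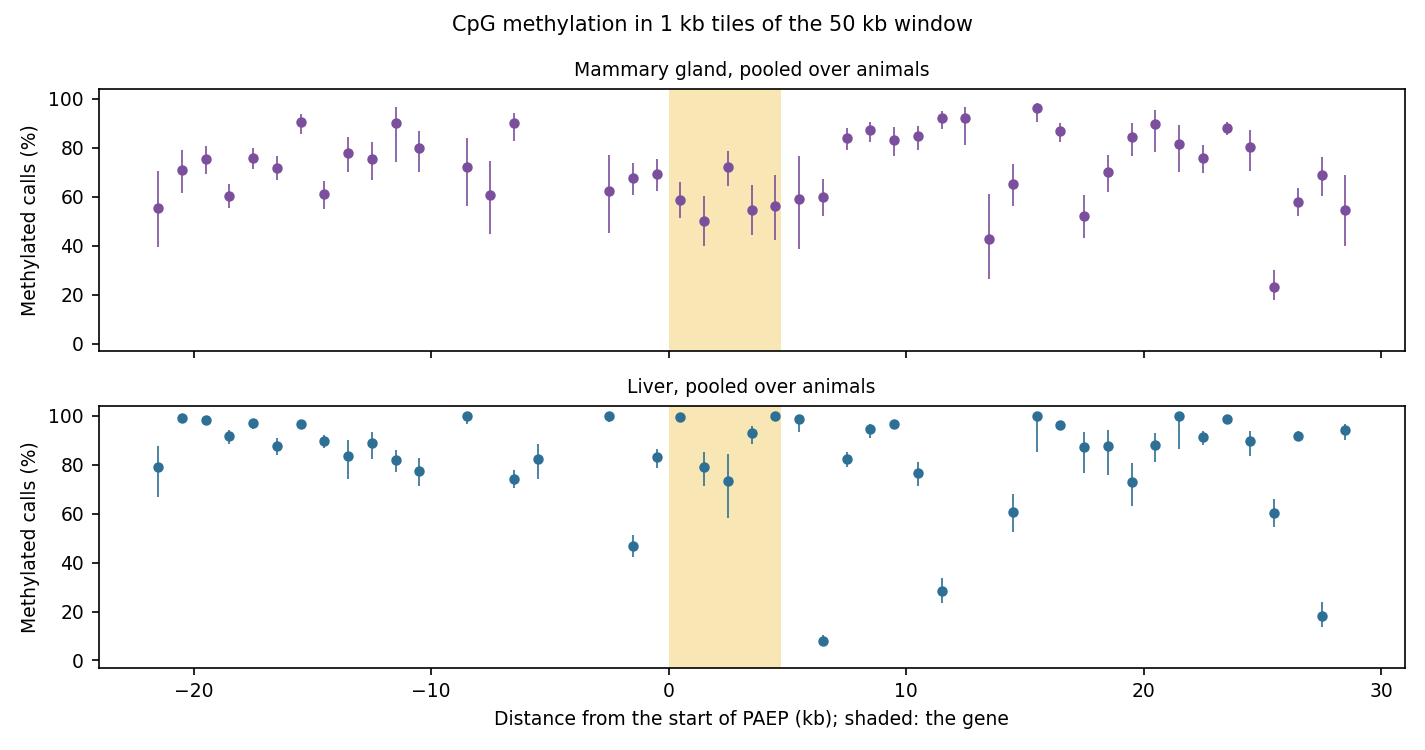
Percent of methylated CpG calls in 1 kb tiles against the distance from the start of PAEP in kb, pooled over 6 heifers (top) and 9 calves (bottom). Points are tiles with 20 or more calls, and the shaded band is the gene. Bars are Wilson 95% intervals for counting error, which take calls as independent and leave out the spread between animals. In mammary gland the tiles of the gene were at 50.0% to 72.1% and those from 7 to 10 kb at 83.3% to 87.1%, while in liver the first kilobase of the gene was at 99.6% and single tiles such as that at 6 to 7 kb (7.94%, or 43.8% without IUHT-B 3) were low.

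Liver showed another pattern over the same tiles. The first kilobase of the gene had 450 of 452 calls methylated (99.6%) at 20 positions in 7 calves, against 101 of 172 calls (58.7%) at 40 positions in the 6 heifers. The other tiles of the gene were at 79.2% (130 calls), 73.2% (41 calls), 93.0% (200 calls) and 100% (163 calls) in liver. Low tiles did occur near the gene in liver, at 46.9% (467 calls) between 2 and 1 kb before it and at 7.94% (579 calls) between 6 and 7 kb after its start. In both, 1 calf held most of the calls. Between 6 and 7 kb, IUHT-B 3 had 0 of 474 calls methylated at 3 positions, IUHT-B 2 had 15 of 15, IUHT-B 4 had 0 of 6 and IUCL-B 5 had 31 of 84, and without IUHT-B 3 the tile was at 43.8%. Between 2 and 1 kb before the gene, the tile was at 97.8% without IUCL-B 1, whose unmethylated positions are named above. IUCL-B 2 was also unmethylated there, with 0 of 4 calls at 2 positions. IUCL-B 4 had 70 of 70 calls methylated, IUCL-B 5 had 97 of 98 and IUHT-B 5 had 52 of 52. Leaving out a calf in this way was chosen after the data had been seen.

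Single positions of the gene were more often of intermediate methylation in mammary gland. Of 42 positions with at least 5 reads over the 6 heifers together, 21 (50.0%) lay between 20% and 80%, 16 (38.1%) were at 80% or more and 5 were at 20% or less. In the flanks of the same heifers, 31.1% of 2246 positions were intermediate and 64.7% were at 80% or more. In liver, 33 of 38 such positions of the gene (86.8%) were at 80% or more and only 1 was intermediate. In the liver flanks, 77.1% of 1601 positions were at 80% or more and 4.93% were intermediate. Few intermediate positions were thus seen in liver outside the gene too. Within single calves the reads of a position nearly always carried 1 state: this held for 14 of 14 positions with at least 3 reads in IUCL-B 4 and for 29 of 30 in IUCL-B 5. Within single heifers it held for 1 of 9 positions in IUHT-H 2 and for 4 of 6 in IUCL-H 1, the lowest and highest shares. These counts within animals are given for the gene only. Depth per position moved with the tissue here, and its part in these shares was not tested.

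No position of the gene or of the 5 kb on each side had more than 10 reads in every heifer, so the 10 positions with the most reads in the shallowest heifer are given. Of these, 5 lay between 7925 and 8045 bases after the start of the gene and were at 84.2% to 93.1%, such as the position at base 103309624 with 27 of 29 calls methylated (93.1%) and the one at base 103309589 with 18 of 20. The position at base 103301940, 276 bases into the gene, had 5 of 15 calls methylated (33.3%), 1 of 5 in IUCL-H and 4 of 10 in IUHT-H. It was the only one of the 10 inside the gene and the lowest of them. Upstream, the positions at 723 and 728 bases before the gene had 17 of 25 and 15 of 22 calls methylated, and the one at 825 bases before it had 16 of 18. At 1668 bases before the gene, 10 of 14 calls were methylated in heifers (71.4%) and 58 of 58 in calves.

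The size of the tissue difference at PAEP was uncommon among other stretches of the genome. Of the 98424 windows of 5 kb with at least 3 calves, 445 (0.452%) had a mammary minus liver difference as low as that of the gene or lower, and the median over windows was -3.99 points. Among the 21455 windows that, like the gene, held 4 calves, 112 (0.522%) were as low or lower. The gene was given this rank as a description, since windows near each other and sharing animals are not independent.

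The level of the heifers alone was less uncommon. The mean of the heifers at the gene, 59.4%, was reached or undercut by 12.6% of 198133 windows, whose median was 79.1%. In the 250 kb made up of the window and its flanks, cut into 51 pieces of 5 kb counted from the start of the gene, the piece at the gene start was at 60.0% in mammary gland (545 calls) and 94.5% in liver (986 calls). Its difference of -34.5 points was the second lowest of the 51. The lowest, -49.0 points, belonged to a piece that began 110 kb upstream, at 15.1% in mammary gland (251 calls) and 64.1% in liver (251 calls), and 5 pieces had a lower level in mammary gland than the piece at the gene. Pieces beginning 30 and 25 kb upstream were close to it, with differences of -34.2 and -31.4 points. Levels and differences like those at PAEP were thus found at other pieces of the same neighbourhood.

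**Figure D3:**
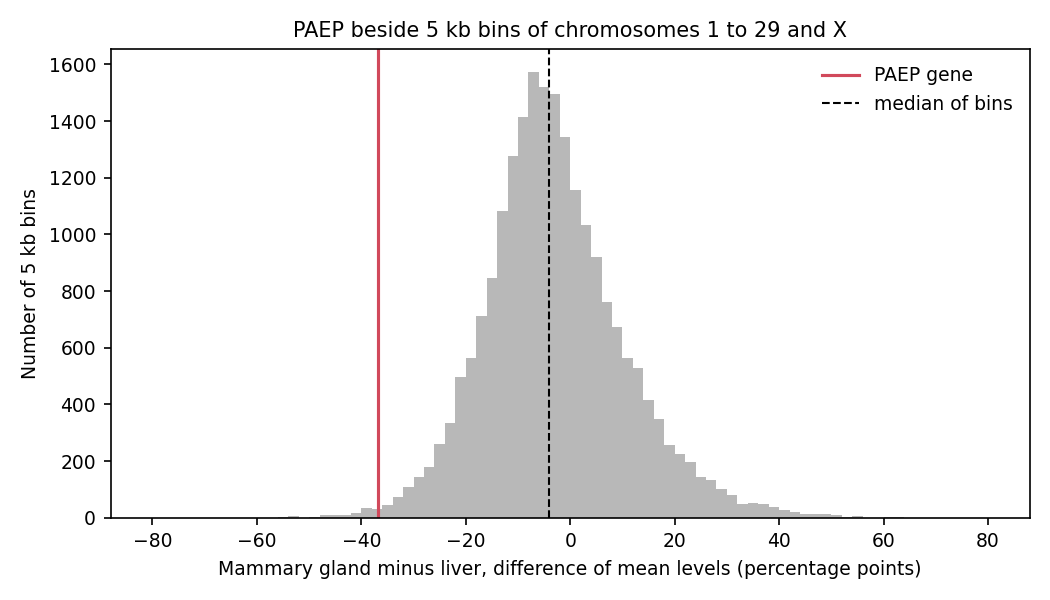
Histogram of the difference of mean methylation levels, mammary gland minus liver in percentage points, over 21455 windows of 5 kb that held all 6 heifers and 4 calves; the vertical axis counts windows. The solid line marks the PAEP gene at -36.8 points, left of the bulk of the windows, and the dashed line their median at -4.05 points.

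The comparison of maternal treatments asked whether heat stress before birth went with another methylation level at PAEP in the lactating gland. In the gene, the IUHT-H animals averaged 54.4% ± 8.34 and the IUCL-H animals 64.5% ± 8.42 (SD, n = 3 each), a difference of -10.2 points that did not pass the exact permutation test (p = 0.3, where 3 against 3 animals cannot go below 0.1). The groups overlapped, since IUHT-H 1 at 61.5% lay above IUCL-H 2 and 3. Without IUHT-H 1 the groups no longer overlapped and the difference was -13.8 points, and without IUCL-H 1 it was -5.31 points. With positions of at least 3 reads alone, which left 2 IUHT-H animals, it was 1.33 points, of the opposite sign. Over 198133 windows of 5 kb with all heifers, 7.46% had an IUHT minus IUCL difference as low or lower, and 4.64% had every IUHT-H animal below every IUCL-H animal, with 4.74% the other way.

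In the other regions the difference between the heifer groups did not pass the test either. Upstream, IUHT-H was at 63.7% ± 8.58 and IUCL-H at 74.1% ± 6.00 (SD, n = 3 each), a difference of -10.4 points (exact permutation p = 0.2). The downstream 5 kb differed by -2.24 points (exact permutation p = 0.2) and the rest of the window by -2.56 points (exact permutation p = 0.4). In the whole window the IUCL-H animals were at 79.0%, 76.6% and 71.1% and the IUHT-H animals at 70.1%, 71.4% and 75.0%, a difference of -3.37 points (exact permutation p = 0.3). In the flanks it was 0.138 points (exact permutation p = 0.9). The mean of IUHT-H was thus lower from the upstream side to the downstream side of the gene, and in all of these regions the animals of the groups overlapped. On positions with at least 3 reads alone, the whole window differed by -5.71 points without overlap (exact permutation p = 0.1, the smallest value possible). With each position counted alike, it differed by -1.54 points with overlap (exact permutation p = 0.8).

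**Figure D4:**
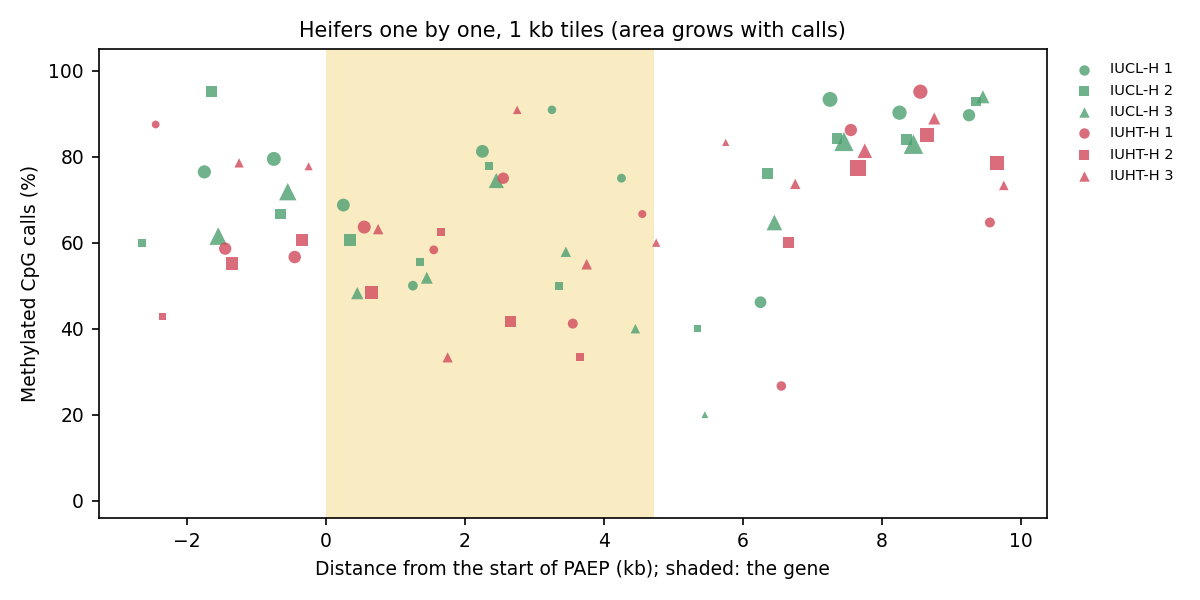
Percent of methylated CpG calls of each heifer in 1 kb tiles against the distance from the start of PAEP in kb; the area of a symbol grows with its calls, tiles with under 5 calls in a heifer are left out, green is IUCL-H, red is IUHT-H, symbol shapes mark the animals, and the shaded band is the gene. The groups mix in every tile of the gene, and all heifers are at 77.4% or higher between 7 and 8 kb.

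By tile, the group levels in the gene were 59.6%, 51.9%, 77.3%, 65.0% and 53.6% in IUCL-H and 57.8%, 47.4%, 64.4%, 45.7% and 59.1% in IUHT-H. The widest gap was in the fourth kilobase of the gene, where the IUCL-H animals were at 90.9%, 50.0% and 57.9% and the IUHT-H animals at 41.2%, 33.3% and 55.0%, on 9 to 20 calls each. The animals still overlapped there. Outside the gene, in the tile from 9 to 10 kb, the IUCL-H animals were at 89.7%, 92.9% and 93.9%. The IUHT-H animals were at 64.7%, 78.6% and 73.3% there, without overlap. This gap was noticed among the 15 tiles and not tested. An exact permutation test of 3 against 3 animals cannot go below 0.1, so such a gap cannot pass 0.05. Over 198133 windows of 5 kb, 4.64% had no overlap with IUHT-H lower and 4.74% with IUHT-H higher. No such share was computed for tiles of this length.

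A fit across many features borrowed the spread of other windows. In limma on log2 ratios of methylated to unmethylated calls, over 122803 features (5 kb windows with at least 20 calls in every heifer, and PAEP), the log2 difference at PAEP was -0.62 with a standard error of 0.44, and the adjusted p was 1.00. No feature of the 122803 was called at an adjusted p of 0.05 (0% called), and 5422 (4.42%) had an unadjusted p under 0.05. A logistic regression with an overdispersion term gave -9.83 points at PAEP with q = 1, called 0 features and had 1833 with an unadjusted p under 0.05. On simulated data limma called 188 of 200 changes placed among these windows. The placed changes were larger than the difference at PAEP, and animals of a group differed by counting error only. The simulation therefore does not show how often limma would call a change like that at PAEP. The F test of the regression with the overdispersion term called none of the placed changes, so its count of 0 says nothing of the windows. The heifers varied at PAEP by an SD of 9.34 points, against a median of 7.17 points over the windows, and 68.8% of windows varied as much or less.

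Single sites of the locus were too shallow for the test of sites used here, which asked for over 10 reads from all animals of the tissue. The study's methods name more than 10 reads without saying in how many animals, so the mammary sites tested may not be those of the study. Under this rule, 18486 sites of the genome were tested in mammary gland, of which 285 (1.54%) were differentially methylated cytosines (DMCs, at least 15 points and q of 0.2 or less). The number of DMCs was 0 with an overdispersion term and 453 (of 18902 sites) without IUCL-H 1. On simulated data the test with that term called 89 of 200 changed sites and 0 unchanged sites. The test without it called 199 of the changed sites and 28 unchanged sites. Animals of a group differed there by counting error only. How either test fares with spread between animals was not simulated. In liver, 900 sites were tested and 298 (33.1%) were DMCs. The test without the term treats reads as replicates and leaves out the spread between animals. The term was not applied to the liver sites, so their share of DMCs stands without that check. Of the sites tested in either tissue, 0 lay in the window or the flanks. With at least 5 reads in every heifer, 5 sites of the flanks were tested, 0 of them a DMC, and still 0 lay in the window. No single CpG of PAEP was therefore tested between the groups here, as none met either minimum of reads.

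In liver, the gene was at 92.1% and 93.1% in the 2 IUCL-B calves with enough positions and at 100% in the 2 IUHT-B calves, a difference of 7.42 points without a test. For the whole window, the IUCL-B calves 1 to 5 were at 67.5%, 90.9%, 91.1%, 87.2% and 81.1%. The IUHT-B calves 2 to 5 were at 96.6%, 83.5%, 72.3% and 99.5%. The groups overlapped widely, with a mean of 88.0% ± 12.6 for the 4 IUHT-B calves and 83.6% ± 9.82 for the 5 IUCL-B calves (SD), a difference of 4.41 points (exact permutation p = 0.563). By the same pooled calls, 57.7% of 13986 windows of 50 kb with all calves had a difference as low or lower, with a median of 2.30 points, and 3.3% had every IUHT-B calf above every IUCL-B calf. The downstream 5 kb differed by -3.96 points (exact permutation p = 0.960), the rest of the window by 2.34 (exact permutation p = 0.802) and the flanks by 1.49 (exact permutation p = 0.698). The treatment difference in heifers minus that in calves was tested in these 4 regions by permuting animals within each tissue, with exact p from 0.330 to 0.977 (adjusted p = 0.977 in each).

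Other weightings of deep positions gave values from 0.556 to 6.73 points for the window. With positions of at least 3 reads it was 0.556 (exact permutation p = 0.929), and with at most 5 reads counted per position it was 6.73 with overlap (exact permutation p = 0.0714). When each position of a calf counted alike, whatever its reads, the IUHT-B calves were at 86.5% ± 2.09 (SD, n = 4) over the window and the IUCL-B calves at 81.7% ± 2.21 (SD, n = 5), a difference of 4.88 points without overlap (exact permutation p = 0.00794, the smallest value possible and not adjusted). The share of genome windows without overlap was not computed on this scale, so how usual this is cannot be said. On the same scale the rest of the window differed by 4.58 points (exact permutation p = 0.397), the downstream 5 kb by -7.83 points (exact permutation p = 0.603) and the flanks by 0.177 points (exact permutation p = 0.929). Averaged in this way over all positions of a library, IUHT-B was 1.49 points higher (exact permutation p = 0.0635). The libraries of the groups also differed in extent, with 27 to 69 positions of the window read in IUHT-B and 54 to 559 in IUCL-B, and the part of this in the difference was not tested.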

How the data were processed

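RRBS was carried out on genomic DNA of 15 animals, 9 livers and 6 mammary glands. Per the study's methods, DNA was cut with MspI and TaqαI, fragments under 300 bp were kept, bisulfite converted and read as 50 bp single ends. Reads were trimmed with Trim Galore and mapped with Bismark to UMD3.1 (the submitters' processing notes give versions 0.4.4 and 0.17.0), and the authors ignored the first bases of each read. The paper gives other version numbers for both tools and a later patch number of the assembly. The authors deposited, per CpG position and animal, counts of methylated and unmethylated calls and the percent methylated. The deposited percent equalled the value from the counts in every line, and no coverage minimum had been applied.

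From the counts, calls were pooled per animal over the gene, the 5 kb on each side, the rest of the window and the flanks. Group means of these levels were set against each other by exact permutation tests (two-sided), and regions within animals by sign-flip tests (Python 3.11.15, numpy 2.4.6, scipy 1.17.1, pandas 2.3.3), adjusted by Benjamini-Hochberg over 19 tests, and regions with under 3 animals in a group were not tested. Windows of the genome were tested with limma 3.58.1 (R 4.3.3) on log2 ratios with 1 added to each count and an intensity trend, and sites by logistic regression with a likelihood-ratio test. These fits were tested on simulated data, in which the animals of a group differed by counting error only. The labels do not pair the animals. Heifers were numbered in the order of their records. Named positions and the 15 tiles followed a rule on reads and place, PAEP was the only gene with values, and the steps and gaps between tiles that the text points out were picked after their values had been seen.

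The locus, its regions, the rules and the tests were chosen with earlier results of these data known. Intervals are Wilson 95% intervals, cover counting error only and take calls as independent. Alternatives were the mean over positions, a minimum of 3 reads, a cap of 5 reads, positions read in both tissues, leaving out animals, and, chosen after seeing the data, all animals with at least 1 call, the mean over positions in all liver regions, and liver tiles without each calf. No gene annotation or sequence of UMD3.1 was used, so exons and other milk protein genes were not analysed here. The gene order was taken from RefSeq for ARS-UCD2.0, whose coordinates were not used.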

Additional observations from a re-analysis of the deposited data

Results flagged for a closer look

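Within 9 combinations of a group and a region with 4 to 10 animals, the animal at either end was compared with the rest by Dixon's ratio, and 3 stood apart, where chance alone marks about 1 in 20 such groups. IUCL-B 2 was at 74.9% in the 5 kb upstream of PAEP, below the other IUCL-B calves with enough positions. IUHT-B 3 was at 7.42% in the 5 kb downstream, far below the other IUHT-B calves. IUHT-B 4 was at 62.4% in the rest of the window, below the other IUHT-B calves. Each rested on few positions, 8, 5 and 24 respectively, and the heifer groups of 3 were too small for this comparison.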

How the results depend on the processing

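Of 72 alternative values, 44 had a permutation test that could reach an unadjusted p of 0.05, and 33 of these kept their direction and their side of it. The other 28 were values without such a permutation test, among them the regional treatment differences of the heifers, and counts of calls. The tissue difference of the gene, and of the gene minus the flanks, kept direction and side under every setting that gave a test. With each position counted alike, the upstream tissue difference was -18.7 (no longer past the threshold), the downstream difference turned to -2.70 (it was 16.6 with at least 3 reads per position) and the liver treatment difference over the window was 4.88, now past it, as the tissue differences of the window (-11.8), its rest (-11.6) and the flanks (-7.01) remained (the liver treatment difference was 0.556 with at least 3 reads and 6.73 with at most 5 reads per position, neither past it). With at least 3 reads per position, the tissue differences were no longer past the threshold in the rest of the window (-8.51), in the whole window (-6.15) and in the flanks (-3.17). Upstream (-14.7, 3 animals of each tissue) and for the gene minus flanks in heifers (-14.9, 5 animals), this setting left too few animals to pass. The gene was also not lower than the flanks in all of these 5 heifers (exact permutation p = 0.125, where 0.0625 was possible). At the same setting, the treatment difference of the heifers turned to 1.33 in the gene and was -5.71 in the window (-1.54 with each position counted alike). With at most 5 reads per position, upstream was -19.2 and no longer past the threshold, and downstream turned to -2.37. On positions read in both tissues, upstream was -8.23 and the window -10.9, both no longer past it. With every animal that had a call, a choice made after the data were seen, upstream was -4.89 and the gene minus flanks difference of the calves was 9.68. Without IUCL-B 4 and 5 the gene difference was -40.6 with 2 calves and no test. The causes of these changes were not tested.

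Leaving out 1 animal at a time gave tissue differences from -39.8 to -34.0 in the gene (exact permutation p from 0.00794 to 0.0119, not adjusted), -30.4 to -21.8 upstream, -8.04 (without IUHT-B 3) to 3.53 downstream, -15.9 to -11.2 in the rest of the window, -13.9 to -9.91 in the window and -6.92 to -4.96 in the flanks. The rest of the window lost its unadjusted p without IUCL-H 3 (exact permutation p = 0.0504) or IUHT-H 1 (exact permutation p = 0.0524). Gene minus flanks ranged from -38.3 to -32.7 between tissues, -20.9 to -15.2 in heifers (exact permutation p = 0.0625, the smallest value 5 animals allow) and 15.3 to 19.2 in calves. Treatment differences of the heifers ranged from -13.8 to -5.31 in the gene. In their window they ranged from -5.58 (without IUCL-H 3, no overlap) to -1.66 (without IUCL-H 1). In the window of the calves they ranged from 0.402 (without IUCL-B 1) to 9.63 (without IUHT-B 4), so this value depended much on single calves. The limma difference at PAEP ranged from -0.82 (without IUHT-H 1) to -0.30 (without IUCL-H 1), with 0 windows called each time.

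The labels do not say that calves of the same number are paired. Calves numbered 2 and 3 deviated from their group means by 7.34 and 8.63 and by 7.50 and -4.50 points (IUCL-B first). Those numbered 4 and 5 deviated by 3.60 and -15.7 and by -2.42 and 11.5 points. So few pairs of values cannot show whether the numbers pair the animals. With the number as a replicate block, the treatment difference in the liver window was 0.402 (exact permutation p = 1.0, 4 pairs, which cannot go below 0.125). The block also dropped IUCL-B 1, which has no partner. Leaving out IUCL-B 1 without a block gave the same 0.402, as it must, because the mean of paired differences equals the difference of the means. The change in the value thus reflects the loss of that calf. Heifer numbers only name the animals.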
